A study of Mus musculus with 16 samples.

Results

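The 10 genes described here encode inhibitory receptors outside the CD28 family and the enzymes and receptor of the extracellular adenosine pathway. They were named as a list and found by symbol among the 55573 genes of the count table: Havcr2, Lag3, Tigit, Cd160, Cd101, Vsir, Entpd1, Nt5e, Cd38 and Adora2a. All 10 were found, and all 10 passed the filter on low counts that left 13711 genes for testing. The cells were OT1 cells, CD8 T cells of C57BL/6 origin with a transgenic receptor for an ovalbumin peptide, which had been transferred into tumour-bearing mice and sorted from the tumour 5 days later as live cells by CD8 with CD45.1 and/or CD90.1. The 4 groups of 4 libraries were Foxp3UP, its control MockUP, Foxp3DN and its control MockDN. Foxp3UP cells express Foxp3, the transcription factor that defines regulatory T cells, and were given to the mice mixed with Mock cells. The meaning of the endings UP and DN, the way Foxp3 was introduced and the kind of tumour were not given in the sources used here, so the group names serve as names only. Nor do these sources say whether libraries of a group came from separate mice, so p-values measure the spread between these libraries, which may be partly technical.

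Inhibitory receptors are carried by activated T cells and restrain them after binding ligands on tumour cells, antigen-presenting cells or neighbouring lymphocytes. T cells that meet antigen for long in a tumour are known to accumulate several of them. The adenosine pathway works alongside them: CD39, the product of Entpd1, converts extracellular ATP and ADP to AMP, CD73, the product of Nt5e, converts AMP to adenosine, and adenosine acts on T cells through the receptor encoded by Adora2a, which raises cyclic AMP. CD38 consumes NAD and feeds a parallel route to AMP. CD39 and CD73 are both known from regulatory T cells of the mouse, and CD39 is also found on tumour-reactive CD8 T cells.

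Library totals ranged from 9389477 to 13226590 counts, with 19847 to 20763 genes detected. Levels are given as CPM (counts scaled to library size, here after TMM), for replicates 1 to 4 in that order. The defining T cell genes were abundant: 8 CD8 T cell markers summed to 3871 to 7297 CPM across the libraries. Mean Cd4 was between 0.250 and 0.502 CPM in the 4 groups. Zbtb7b, the other CD4 T cell marker, averaged 10.3 CPM in Foxp3UP against 6.79 in its control. That log2 difference of 0.60 was not called in the main fit. Its means were 8.19 CPM for Foxp3DN and 8.88 for MockDN. Zbtb7b was called higher in Foxp3UP with the replicate block, in DESeq2, without MockUP 2, and within replicates 3 and 4 with pooled spread. It was not called with library totals, nor within replicates 1 and 2 with pooled spread. MockUP 2 stood apart: its 10 most abundant genes took 4.86% of its counts, where those of MockUP 1, 3 and 4 took 6.25 to 6.35%. Its CD8 T cell marker sum was the lowest, at 3871 CPM, against 5292, 6453 and 6411 in MockUP 1, 3 and 4. Mitochondrial genes took 0.279% of its counts, against 0.541 to 0.709% in those libraries. Foxp3 was at 15.2, 21.0, 29.5 and 28.7 CPM in Foxp3UP and at 11.5, 13.0, 13.7 and 11.5 in MockUP, without overlap, and rose by a log2 fold change of 0.92 ± 0.17 (SE, edgeR adjusted p = 0.00233). Same-numbered libraries differed by log2 ratios of 0.40, 0.69, 1.10 and 1.33. The rise was called in 8 of 8 cases with 1 library left out. It was called in 9 of 11 other settings of the fit, with log2 fold changes of 0.56 to 1.21. In Foxp3DN it was at 10.3, 10.1, 10.4 and 10.2 CPM, below the 11.0 to 14.6 of MockDN, a log2 difference of -0.33 ± 0.17 that missed the threshold (edgeR adjusted p = 1.00). The libraries labelled Foxp3DN thus showed no rise of Foxp3 over their control.

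Between Foxp3UP and MockUP, 3 of the 10 genes rose and none fell. These were Entpd1, the ectoenzyme CD39, at 2.29-fold, Cd101, an inhibitory immunoglobulin-family receptor, at 1.65-fold, and Havcr2, the receptor TIM-3, at 1.48-fold. The other 7 did not pass at an edgeR adjusted p of 0.05. Over all genes tested 12.1% were called, 833 higher and 821 lower, and 6.08% were called higher. The same 3 of 10 genes had all Foxp3UP libraries above all MockUP libraries, and libraries of these groups did not overlap for 15.9% of all genes. The median log2 fold change of the 10 genes was 0.22 and that of all genes 0.00. The median of the 8 CD8 T cell markers was 0.24. Of these markers, 1 was called higher, and 4 were with the replicate block. Scaling by library totals instead of TMM gave 646 genes higher and 1081 lower, so that 37.4% of calls were higher in place of 50.4%, and Havcr2, Cd101 and Entpd1 were called higher there too. Without Foxp3UP 1, 1055 genes were called in all. In these bulk libraries, fewer cells of a kind and less RNA per cell cannot be told apart.

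**Figure D1:**
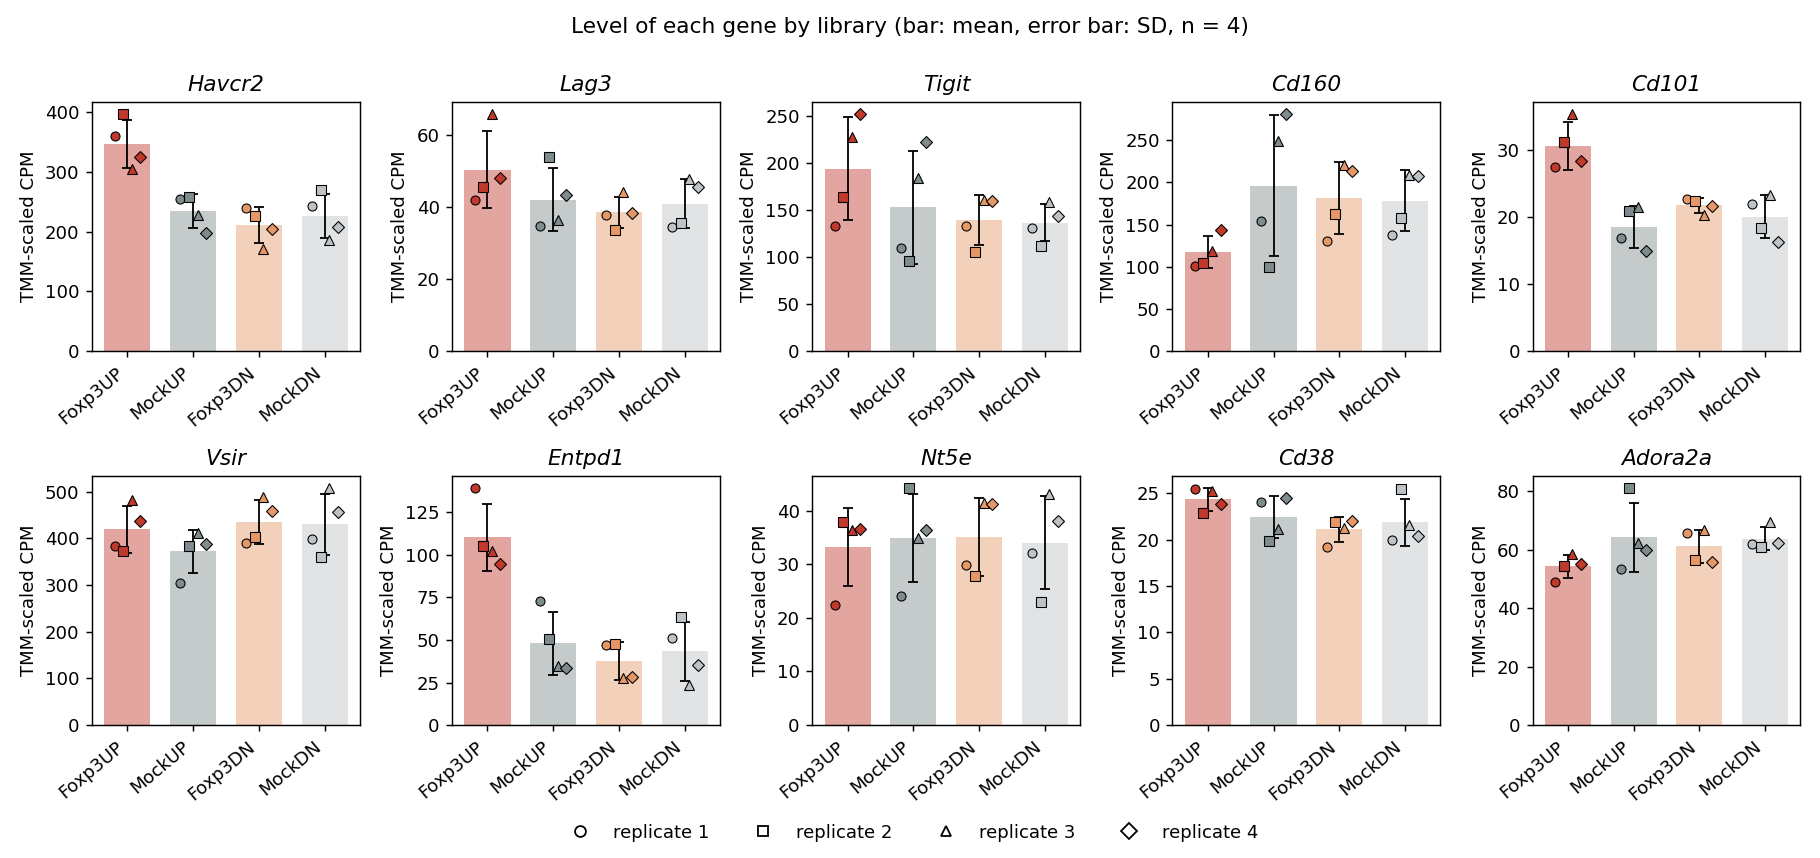
Level of each of the 10 genes in every library, in TMM-scaled CPM on linear axes from 0, by group, with the bar at the mean and the error bar at 1 SD (n = 4). All 4 Foxp3UP libraries lie above all MockUP libraries for Havcr2, Cd101 and Entpd1, and the groups overlap in the other 7 panels.

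Among the receptors, Havcr2 (chromosome 11, 46454935 to 46481255, mm10) binds galectin-9, phosphatidylserine and other ligands and marks terminally exhausted CD8 T cells. It was at 360, 397, 305 and 325 CPM in Foxp3UP and at 255, 258, 228 and 197 in MockUP. The lowest Foxp3UP library stood above the highest MockUP library. The means were 347 ± 40.6 and 235 ± 28.5 CPM (SD, n = 4), and the log2 fold change was 0.57 ± 0.13 (SE, edgeR adjusted p = 0.0109). Each Foxp3UP library also stood above the MockUP library of its own number, by log2 ratios of 0.50, 0.62, 0.42 and 0.73.

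Cd101 (chromosome 3, 100993529 to 101029556) is known as a marker of a late, terminal stage of exhausted CD8 T cells and is also carried by regulatory T cells. It was at 27.4, 31.2, 35.3 and 28.3 CPM in Foxp3UP and at 16.8, 20.8, 21.4 and 14.9 in MockUP, again without overlap. The means were 30.5 ± 3.55 and 18.5 ± 3.13 CPM (SD, n = 4), and the log2 fold change was 0.72 ± 0.14 (SE, edgeR adjusted p = 0.00284). Same-numbered libraries differed by log2 ratios of 0.71, 0.59, 0.72 and 0.92. Within replicates 1 and 2, with the spread pooled over all libraries, the difference was 0.64 and missed the threshold (edgeR adjusted p = 0.0589).

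Entpd1 (chromosome 19, 40612366 to 40741602) carries out the first step of the pathway to adenosine. It was at 139, 105, 102 and 94.5 CPM in Foxp3UP and at 73.0, 50.4, 34.8 and 33.7 in MockUP. Its lowest Foxp3UP library stood above the highest MockUP library. The means were 110 ± 19.9 and 48.0 ± 18.3 CPM (SD, n = 4), and the log2 fold change of 1.20 ± 0.30 was the largest of the 10 genes in size (edgeR adjusted p = 0.0154). The log2 ratio was 0.93 and 1.06 in pairs 1 and 2 and 1.55 and 1.49 in pairs 3 and 4. Without Foxp3UP 1, the library with the highest level, the log2 fold change was 1.06 and edgeR's adjusted p was 0.0503, and with no filter on low counts it was 1.19 with an adjusted p of 0.0722.

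CD39, TIM-3 and VISTA are also carried by myeloid cells, and some markers of myeloid cells were higher in Foxp3UP while others were lower. The 14 myeloid markers summed to 54.6 to 78.2 CPM in Foxp3UP and 38.9 to 60.0 in its control, and to 40.9 to 64.3 in Foxp3DN and 41.3 to 50.8 in its control, and none was at 0 in all libraries of a group. Of the 10 that were tested, Cd68 was called higher in Foxp3UP (22.7 against 12.5 CPM, edgeR adjusted p = 0.00207) and none lower, with a median log2 fold change of 0.46. Cd14 was at 6.49 against 3.36 CPM, Itgam at 4.17 against 1.95, Fcgr1 at 1.63 against 1.02 and Lyz2 at 15.4 against 12.7. Csf1r (5.89 against 7.25 CPM) and Spi1 (0.874 against 1.56) went the other way. None of these was called. With the replicate block, in DESeq2 and without MockUP 2, 2 of the 10 were called higher. The myeloid sum was higher in Foxp3UP in all 4 same-numbered pairs. The 9 dendritic cell markers summed to 109 to 141 CPM in Foxp3UP and 76.7 to 114 in MockUP, with Siglech at 0 throughout. Of the 5 that were tested, H2-Ab1 was called higher. None of the 5 was called without MockUP 2, and 2 were called higher with the replicate block. The part of such cells in the results was not tested. Melanocyte genes summed to 61.7 to 143 CPM in Foxp3UP and 63.1 to 94.3 in MockUP, and none of the 5 was called, while 1 was called higher with the replicate block. That block also called 1 of 3 tested epithelial markers and the 1 tested stromal marker higher.

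Sequence upstream of the 3 genes that rose is shown because their levels moved in one direction in the Foxp3UP libraries. RefSeq promoter windows, 250 bases before to 50 after a start site on GRCm38.p6, were at hand for 8 of the 10 genes (Havcr2, Tigit, Cd160, Cd101, Vsir, Entpd1, Nt5e and Cd38), with a pair of start sites each for Cd160 and Entpd1. Motifs were searched on both strands. The RUNX core motif TGTGGT was found in windows of 5 of the 8 genes (Cd101, Cd160, Entpd1, Havcr2 and Tigit), against 16.8% of all 32851 windows. The forkhead motif TGTTTAC, of the kind Foxp3 binds, was in none of the 8 and in 3.65% of all windows. The AP-1 motif TGANTCA was in 1 (Havcr2, at -200 from the start) against 7.81%, the NFAT motif GGAAAA in 2 (Entpd1 and Tigit) against 23.4%, the E-box CANCTG in 6 against 51.4% and the BLIMP1 motif GAAAGT in none against 14.3%. A match is a match of letters only. The members are counted per gene with a match in any window, but the shares of all windows are per window. Cd160 and Entpd1, with a pair of windows each, thus had more chance of a match. The upstream 250 bases are printed 5′ to 3′ on the gene's strand, with the RUNX motif in capitals. That motif was chosen for display after the matches were seen. In Havcr2 (chr11:46454681-46454930, plus strand) it begins at -46 from the start, and in Cd101 (chr3:101029554-101029803, minus strand) it begins at -49 and reads ACCACA, its reverse complement. Neither Entpd1 window (chr19:40612116-40612365 and chr19:40659520-40659769, plus strand) holds it before the start. Its single match there lies 34 bases after the second start.
Havcr2: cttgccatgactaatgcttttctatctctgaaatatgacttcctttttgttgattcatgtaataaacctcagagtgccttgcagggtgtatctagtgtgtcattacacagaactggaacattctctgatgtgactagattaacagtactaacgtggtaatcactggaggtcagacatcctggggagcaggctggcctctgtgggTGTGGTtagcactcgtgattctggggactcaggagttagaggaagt
Cd101: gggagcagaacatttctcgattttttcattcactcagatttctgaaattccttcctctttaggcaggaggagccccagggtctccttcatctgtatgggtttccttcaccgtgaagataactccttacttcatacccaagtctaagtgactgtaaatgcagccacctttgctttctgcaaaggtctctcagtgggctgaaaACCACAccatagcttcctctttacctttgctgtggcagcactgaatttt
Entpd1, start 1: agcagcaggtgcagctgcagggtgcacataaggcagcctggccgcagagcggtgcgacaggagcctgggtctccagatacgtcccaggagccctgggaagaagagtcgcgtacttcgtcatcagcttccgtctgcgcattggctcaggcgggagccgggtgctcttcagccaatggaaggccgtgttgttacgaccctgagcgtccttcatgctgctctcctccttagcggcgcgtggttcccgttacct
Entpd1, start 2: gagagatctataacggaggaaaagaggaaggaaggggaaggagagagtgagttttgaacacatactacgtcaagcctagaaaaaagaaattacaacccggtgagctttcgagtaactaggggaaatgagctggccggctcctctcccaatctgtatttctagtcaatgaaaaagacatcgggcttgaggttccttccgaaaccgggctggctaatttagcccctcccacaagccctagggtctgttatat

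The 4 other receptors of the list were not called. Cd160, a receptor for the herpesvirus entry mediator, had the lowest log2 difference of the 10 genes. It was at 101, 105, 119 and 143 CPM in Foxp3UP and at 154, 100, 249 and 281 in MockUP. MockUP 2 stood below every Foxp3UP library, and the other MockUP libraries stood above them all. The log2 difference of -0.75 ± 0.26 missed the threshold (edgeR adjusted p = 0.0753). It passed with the replicate block (-0.65, edgeR adjusted p = 0.00542), without MockUP 2 (-0.96, adjusted p = 0.0126), with library totals (-0.78, adjusted p = 0.0437) and in DESeq2 (-0.76, adjusted p = 0.0306). With the spread pooled over all libraries, the difference within replicates 3 and 4 was -1.02 (edgeR adjusted p = 0.00211), while within replicates 1 and 2 it was -0.30 (adjusted p = 0.252). Whether those sets differ from each other was not tested.

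Tigit, which competes with the activating receptor CD226 for the poliovirus receptor, was at 133, 164, 227 and 252 CPM in Foxp3UP and at 110, 96.0, 184 and 222 in MockUP. The groups overlapped, yet each Foxp3UP library was above the MockUP library of its number, by log2 ratios of 0.27, 0.77, 0.30 and 0.19. The largest of these ratios, 0.77, was that with MockUP 2. The log2 difference of 0.34 ± 0.25 did not pass (edgeR adjusted p = 0.404). With 1 library left out it was 0.17 to 0.58 and was called in 0 of 8 cases. With the replicate block it was 0.38 and passed (edgeR adjusted p = 0.00697). With that block 5 of the 10 genes were called, Havcr2, Cd101, Entpd1 and Tigit higher and Cd160 lower, against 25.3% of all genes.

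Lag3, which binds MHC class II molecules, was at 41.9, 45.5, 65.7 and 47.9 CPM in Foxp3UP and at 34.6, 53.8, 36.3 and 43.3 in MockUP. The groups overlapped, with the lead of Foxp3UP largest in replicate 3 and reversed in replicate 2. Vsir, which encodes the checkpoint protein VISTA, was at 384, 373, 483 and 437 CPM against 304, 384, 412 and 388. Its log2 difference was 0.17 ± 0.13 and that of Lag3 0.26 ± 0.16, and neither passed (edgeR adjusted p = 0.414 and 0.338). Lag3 was called in 1 of 11 other settings of the fit (edgeR adjusted p = 0.0181) and in 0 of 8 with 1 library left out. For the difference of effects between UP and DN groups it was called in 1 of 10 other settings (edgeR adjusted p = 0.0354). The gene body of Vsir lies inside Cdh23, on the opposite strand. The highest count of Cdh23 in a library was 281, whereas that of Vsir was never below 3299, and use of strand in counting was not given in the sources used here. Cd160 overlaps Pdzk1 on the opposite strand, whose highest count was 71.

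Of the other enzymes and the receptor of the adenosine pathway in the list, none was called. Nt5e, the AMP-cleaving enzyme CD73, was at 22.4, 37.8, 36.3 and 36.5 CPM in Foxp3UP and at 24.1, 44.2, 34.9 and 36.3 in MockUP. The values overlapped throughout, with replicate 1 the lowest of both groups, and the log2 difference was -0.07 ± 0.22 (edgeR adjusted p = 0.879). Cd38, the NAD-consuming ectoenzyme, was at 25.5, 22.9, 25.2 and 23.8 CPM against 24.1, 19.9, 21.1 and 24.5, a log2 difference of 0.12 ± 0.11 (edgeR adjusted p = 0.531). Adora2a, the adenosine receptor, was at 49.0, 54.5, 58.5 and 55.0 CPM against 53.4, 81.1, 62.4 and 59.9. Each Foxp3UP library was below the MockUP library of its number, but the log2 difference of -0.24 ± 0.12 did not pass (edgeR adjusted p = 0.188), and it was -0.11 without MockUP 2, the highest of the 16 libraries. Of Entpd1, Nt5e, Cd38 and Adora2a, Entpd1 alone was called in this comparison, and whether its change differs from theirs was not tested.

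**Figure D2:**
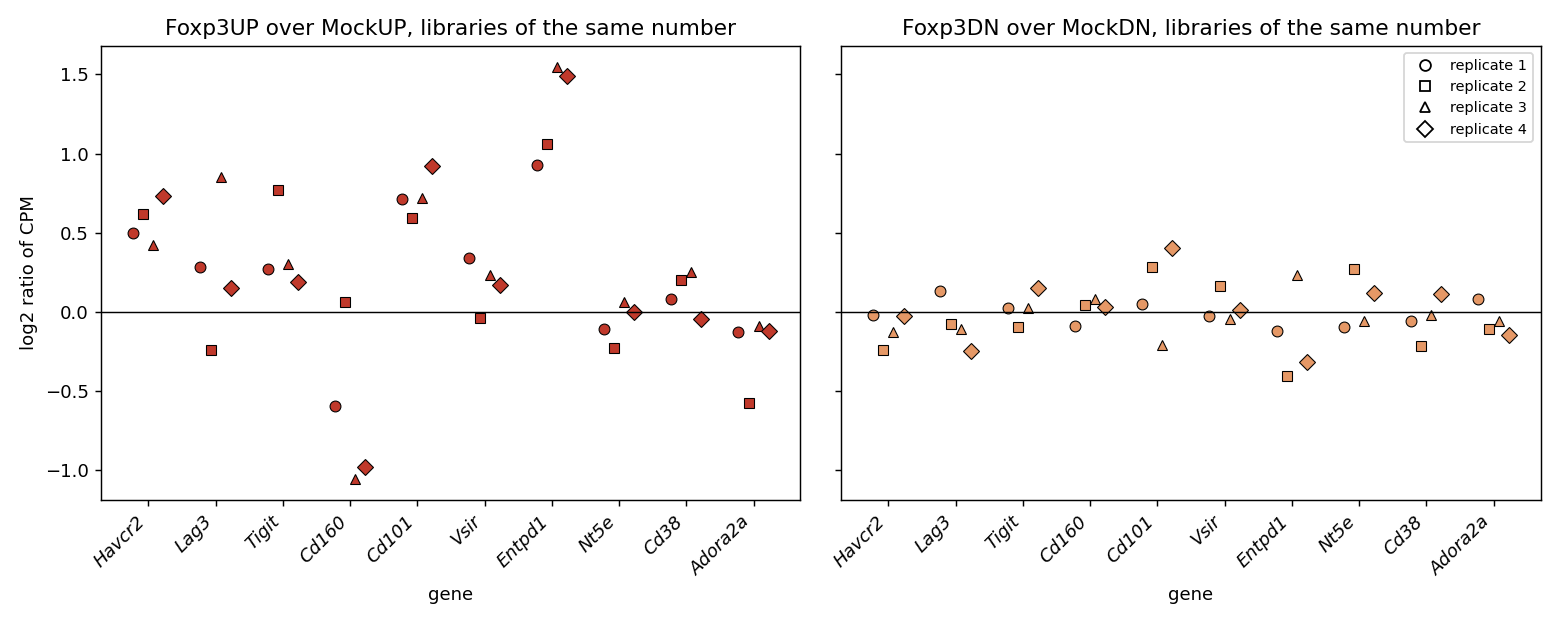
Log2 ratio of CPM between Foxp3 and Mock libraries of the same replicate number, for the UP groups (left) and the DN groups (right), with 1 marker shape per replicate number. In the UP groups Havcr2, Tigit, Cd101 and Entpd1 lie above 0 in all 4 pairs and Adora2a below 0 in all 4, and in the DN groups Havcr2 lies below 0 in all 4, by at most 0.24.

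Between Foxp3DN and MockDN none of the 10 genes was called by edgeR, none had an unadjusted p under 0.05, and DESeq2 called none. Over all genes 0.00729% were called, which is 1 gene, and 143 had an unadjusted p under 0.05. The log2 differences of the 10 genes ran from -0.20 (Entpd1) to 0.12 (Cd101). Havcr2 was at 240, 227, 171 and 205 CPM in Foxp3DN and at 243, 269, 186 and 208 in MockDN, and the log2 difference was -0.11 ± 0.13 (edgeR adjusted p = 1.00). Entpd1 was at 47.2, 47.5, 27.7 and 28.4 CPM against 51.3, 63.1, 23.7 and 35.3, a log2 difference of -0.20 ± 0.30 (edgeR adjusted p = 1.00). Cd101 was at 22.7, 22.4, 20.2 and 21.6 CPM against 21.9, 18.4, 23.3 and 16.3. The libraries of these groups overlapped for all 10 genes, and did not overlap for 1.15% of all genes.

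**Figure D3:**
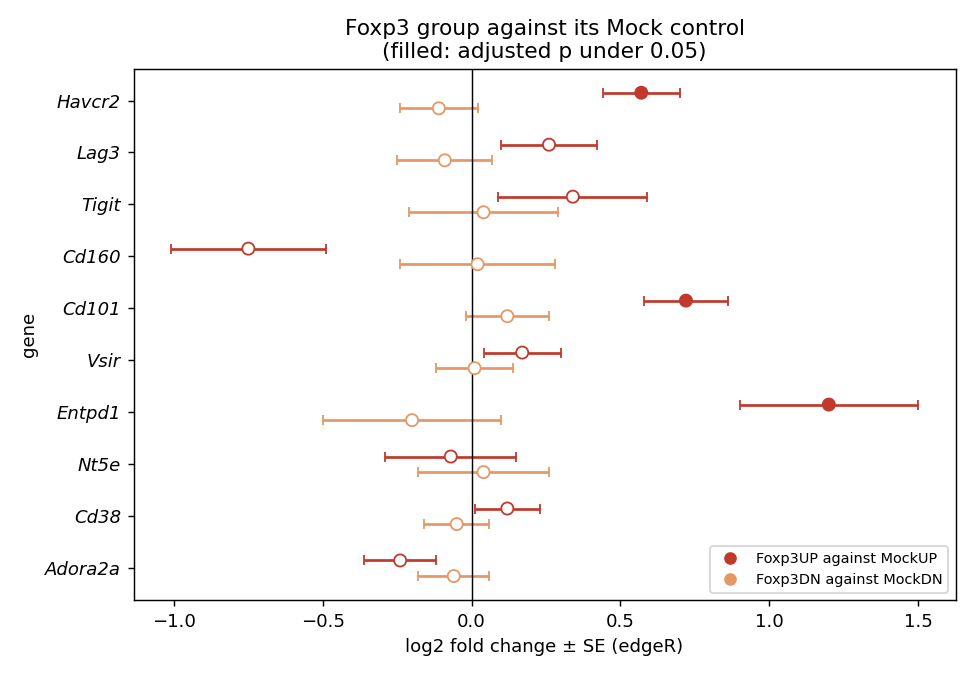
Log2 fold change of each gene with its standard error from edgeR, Foxp3UP against MockUP in red and Foxp3DN against MockDN in orange, filled where the adjusted p was under 0.05. The 3 filled points are Havcr2 at 0.57, Cd101 at 0.72 and Entpd1 at 1.20, all in the UP comparison, and no orange point lies beyond 0.20 in size.

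A change called in the UP groups and not in the DN groups is not by itself a difference between them, so the difference of the effects was tested. It was 1.40 ± 0.42 for Entpd1 (edgeR adjusted p = 0.100), 0.67 ± 0.19 for Havcr2 (adjusted p = 0.0765) and 0.61 ± 0.20 for Cd101 (adjusted p = 0.124). None of the 10 genes passed, 3 of them (these 3) had an unadjusted p under 0.05, and 1.83% of all genes were called. DESeq2 called Havcr2 and Entpd1, with 4.75% of all genes called. With the replicate block 4 of the 10 genes passed, and 12.7% of all genes did. These were Entpd1 at 1.41 (edgeR adjusted p = 3.39e-04), Havcr2 at 0.67 (adjusted p = 7.61e-04), Cd101 at 0.60 (adjusted p = 0.0226) and Cd160 at -0.67 (adjusted p = 0.0457). With 1 library left out, the genes called for this difference numbered 101 (without MockDN 1) to 524 (without MockUP 1), and Entpd1 was called without MockUP 1 and Entpd1 and Havcr2 without MockDN 3.

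The controls give the level of these genes in Mock cells. MockUP and MockDN differed by log2 values from -0.21 (Vsir) to 0.16 (Tigit) over the 10 genes, and edgeR called none of the 10 (0 with an unadjusted p under 0.05, and DESeq2 called 0). It called 0.00729% of all genes. Entpd1 averaged 48.0 ± 18.3 CPM in MockUP and 43.3 ± 17.3 in MockDN, and Havcr2 averaged 235 ± 28.5 and 226 ± 36.4 CPM (SD, n = 4).

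Levels compared between genes need a scale per length, and length-scaled levels (TPM) computed from the counts and the deposited exonic lengths were used. Tigit was the highest of the 10 genes in all 4 groups, with means of 585 TPM in Foxp3UP and 491 in its control, and of 438 in Foxp3DN and 435 in its control, though its range overlapped that of Havcr2 in Foxp3UP. Havcr2, Vsir and Cd160 came next. In Foxp3UP these were apart from each other, at 357, 233 and 123 TPM, with library ranges that overlapped neither between Havcr2 and Vsir nor between Vsir and Cd160. In the other 3 groups the ranges of Havcr2, Vsir and Cd160 overlapped between neighbours, with means from 198 to 265 TPM. A middle group held Lag3, Adora2a and Entpd1 in Foxp3UP, at 66.3, 49.4 and 55.3 TPM. In the other 3 groups Entpd1 stood below Lag3 and Adora2a without overlap with the lower of them, at 26.7 TPM in MockUP, 19.8 in Foxp3DN and 23.0 in MockDN, and its range overlapped that of the gene below it. Cd101, Cd38 and Nt5e were lowest, and Nt5e was last in every group at 10.8 to 12.5 TPM. CD39 transcripts were thus about as abundant as those of Lag3 and Adora2a in Foxp3UP alone, while CD73 transcripts were the least abundant of the list in all groups.

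The genes also varied between sets of replicates within each group. By the sample numbers in the titles, replicates 1 and 2 form an earlier set and replicates 3 and 4 a later set in every group. Entpd1 and Havcr2 were higher in replicates 1 and 2 in all 4 groups. For Entpd1 the log2 ratio of the earlier to the later set was 0.32 in Foxp3UP and 0.85 in its control, and 0.76 in Foxp3DN and 0.95 in its control, and for Havcr2 it was between 0.27 and 0.37. Tigit, Cd160, Vsir and Nt5e were higher in replicates 3 and 4 in all 4 groups. Cd160 averaged 127 CPM in MockUP 1 and 2 and 265 in MockUP 3 and 4, and Tigit 103 and 203. Each set held 2 libraries of every group. Fitted on the 8 libraries of replicates 1 and 2 only, none of the 10 genes was called in Foxp3UP against MockUP: Entpd1 differed by 0.98 (edgeR adjusted p = 0.103) and Havcr2 by 0.56 (adjusted p = 0.115). On replicates 3 and 4 only, Entpd1 rose by 1.49 (edgeR adjusted p = 2.04e-06) and Havcr2 by 0.55 (adjusted p = 6.66e-04). With the spread pooled over all 16 libraries, a fit added after the data were seen, Entpd1 was called in both sets, at 0.98 (edgeR adjusted p = 0.0108) and 1.52 (adjusted p = 4.32e-04), and Havcr2 at 0.56 (adjusted p = 0.0144) and 0.57 (adjusted p = 0.00855). In that fit 9.92% of all genes were called within replicates 1 and 2 and 9.14% within replicates 3 and 4.

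**Figure D4:**
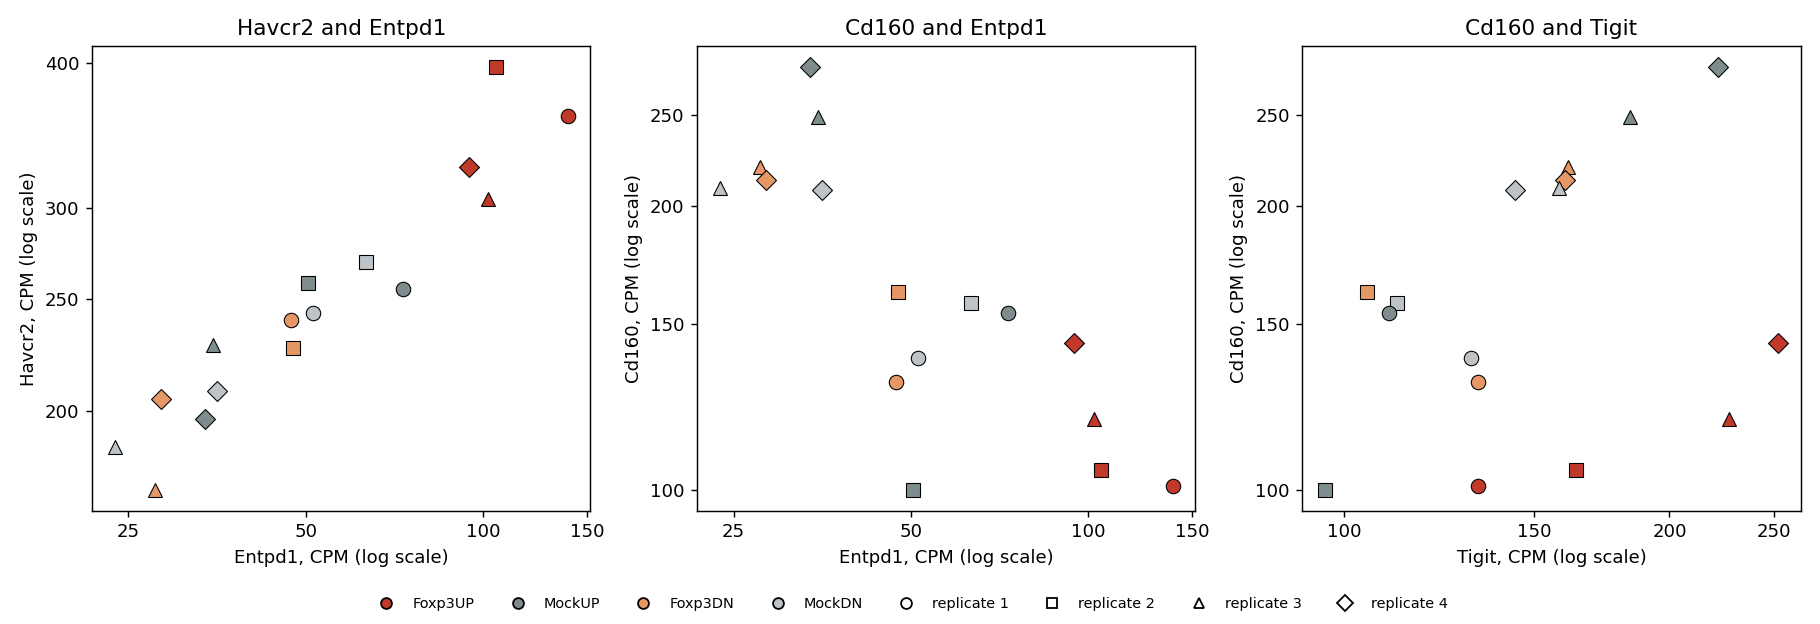
CPM of 3 pairs of genes over the 16 libraries on log axes, coloured by group, with 1 marker shape per replicate number. Havcr2 is higher in libraries with more Entpd1 (r = 0.95), Cd160 is lower in them (r = -0.80), and the 4 Foxp3UP libraries hold 101 to 143 CPM of Cd160 at 133 to 252 CPM of Tigit.

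Over the 16 libraries the log2 CPM of Havcr2 and Entpd1 correlated at r = 0.95, and their deviations from the group means at 0.82. These points share groups, replicate sets and library scaling, so the values are descriptions. Cd101 rose in the same comparison but did not follow these genes inside groups: its r with Havcr2 was 0.66 over libraries and 0.10 after removal of group means. Cd160 ran against Entpd1, at -0.80 and -0.72, and against Havcr2, at -0.80 and -0.75. Tigit and Cd160 correlated at 0.33 over libraries and at 0.85 after removal of group means, and Vsir and Entpd1 at -0.44 and -0.89. The 10 genes thus did not all vary in one direction.

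The genes whose levels were most like each member over the 16 libraries, by Pearson's r, are also given as a description. For Entpd1 they were Prf1, the pore-forming protein perforin (0.99), Trpv2, a cation channel (0.98), and Gsn, the actin-severing protein gelsolin (0.97). For Havcr2 they were Oit3, Dnajc1 and Gsn (0.96 each). Cd160 was most like Rae1 (0.97), Phb2, the mitochondrial protein prohibitin 2, and C1qbp (0.96 each), and Tigit was most like Cnbd2 (0.93), Tnfrsf18, the receptor GITR, and Tnfrsf9, the receptor 4-1BB (0.92 each). Cd101 was most like Cdc42se2 (0.92), Qsox1 (0.91) and Dgka (0.89), and Adora2a was most like Ube2o, Pcnx and Stat5b (0.93 each). Nt5e was like Jun (0.92) and Dtx1 (0.91). For Vsir they were St3gal4 (0.91), Pttg1ip (0.90) and D1Ertd622e (0.89), for Cd38 Slc35c2 (0.92), Idh2 (0.86) and Acaa1a (0.83), and for Lag3 Cds2, Lamc1 (0.84 each) and Pak6 (0.81).

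Ligands, competing receptors and processing enzymes of these receptors were examined as a list of 19 genes, of which 14 were tested. In Foxp3UP against MockUP 3 rose, none fell and 11 did not pass, with a median log2 fold change of 0.15, beside 12.1% called and 6.08% called higher over all genes. Pvrig, an inhibitory receptor related to Tigit that binds nectin-2, rose from 3.56 ± 1.12 to 13.7 ± 3.39 CPM (SD, n = 4), a log2 fold change of 1.94 ± 0.29 (edgeR adjusted p = 5.41e-04). It was also called in the difference of effects, at 2.06 ± 0.42 (adjusted p = 0.0181), and in 15 of 16 cases there with 1 library left out. No other gene of this list was called there, but DESeq2 called 2 and the replicate block 4: Pvrig, Lgals9 (edgeR adjusted p = 0.00966), Lgals3 (adjusted p = 0.0063) and Selplg (adjusted p = 0.00375), against 12.7% of all genes. Selplg, which encodes PSGL-1, a selectin ligand that also binds VISTA, rose by 0.41 ± 0.09 (1061 ± 67.4 against 796 ± 61.8 CPM, edgeR adjusted p = 0.00532). Lgals9, the TIM-3 ligand galectin-9, rose by 0.39 ± 0.11 (edgeR adjusted p = 0.0209). Its adjusted p was 0.0662 without Foxp3UP 1, 0.0685 without Foxp3UP 3 and 0.0548 without MockUP 4. Cd226 and Cd96, which share ligands with Tigit, had log2 differences of -0.03 and -0.19 and did not pass, while with the replicate block Cd96 was called lower (-0.19, edgeR adjusted p = 0.0263). Lgals3, a ligand of Lag3, was at 516 ± 69.6 CPM against 332 ± 88.2 and missed the threshold (0.63 ± 0.22, edgeR adjusted p = 0.0684), and with the replicate block it passed (edgeR adjusted p = 6.35e-04). With that block 4 of the 14 were called higher and 1 lower, against 25.3% of all genes called.

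Of 26 further genes of purine release, breakdown, transport and sensing, 17 were tested, 1 rose, 3 fell and 13 did not pass in Foxp3UP against MockUP (median 0.17), against 12.1% of all genes called. Those that fell act on adenosine after it is made or on its passage through the membrane. Adk, the kinase that turns adenosine back into AMP inside cells, fell from 65.4 ± 5.22 to 46.5 ± 2.48 CPM (SD, n = 4, log2 fold change -0.49 ± 0.08, edgeR adjusted p = 0.00140), and was called in the difference of effects too, at -0.57 (adjusted p = 0.0213). Its difference of effects was called in 14 of 16 cases with 1 library left out, with edgeR adjusted p up to 0.0576. Slc29a2 and Slc29a1, equilibrative nucleoside transporters, fell by 1.37 ± 0.33 (edgeR adjusted p = 0.0112) and 0.30 ± 0.08 (adjusted p = 0.0247). Slc29a1 missed the threshold without Foxp3UP 1, 3 or 4 or MockUP 3 or 4, with adjusted p up to 0.0776. Dpp4, the peptidase CD26, rose by 0.40 ± 0.12 (edgeR adjusted p = 0.0316) and missed the threshold without Foxp3UP 1, 3 or 4 or MockUP 3 or 4 and with library totals (adjusted p = 0.0919). With the replicate block 6 of the 17 were called higher and 3 lower, against 25.3% of all genes called, the added ones being Ada, Slc28a2, P2rx4, P2ry14 and Panx1. Without MockUP 2 there were 3 higher and 3 lower, and with library totals 0 higher and 3 lower. In the difference of effects the block also called Slc29a2 lower (-1.47, edgeR adjusted p = 0.00453) and Panx1 higher (0.33, adjusted p = 0.0314).

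NAD metabolism was followed in 12 genes, all tested, of which 1 fell, none rose and 11 did not pass in Foxp3UP against MockUP (median -0.15). The one that fell was Parp1, a nuclear NAD-consuming enzyme, by 0.42 ± 0.12 (84.3 ± 11.0 against 113 ± 19.6 CPM, edgeR adjusted p = 0.0347). It missed the threshold without Foxp3UP 2, 3 or 4 or MockUP 1 or 2, with adjusted p up to 0.106. Of 17 genes of cyclic AMP signalling, which acts downstream of the adenosine receptor, 16 were tested, 2 fell, none rose and 14 did not pass (median -0.01). The shares called in the NAD and cyclic AMP lists were near or below the 12.1% of all genes, so these counts are no result about the lists. Pde7a, a phosphodiesterase that degrades cyclic AMP, fell by 0.65 ± 0.11 (94.5 ± 9.05 against 148 ± 23.9 CPM, edgeR adjusted p = 0.00157) and by 0.73 in the difference of effects (adjusted p = 0.0291). That difference was called in only 8 of 16 cases with 1 library left out, with edgeR adjusted p up to 0.0738. Prkar2a, a regulatory subunit of protein kinase A, fell by 0.47 ± 0.12 (edgeR adjusted p = 0.0144). With the replicate block the counts were 1 higher and 1 lower for the NAD genes, with Art2b added, and 3 higher and 3 lower for the cyclic AMP genes, with Prkar1a, Crem, Pde4b and Adcy3 added, against 25.3% of all genes called. In the difference of effects the block added Parp1 (-0.32, edgeR adjusted p = 0.0451). Between Foxp3DN and MockDN no gene of these 4 lists was called by edgeR, nor was any between MockUP and MockDN.

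**Figure D5:**
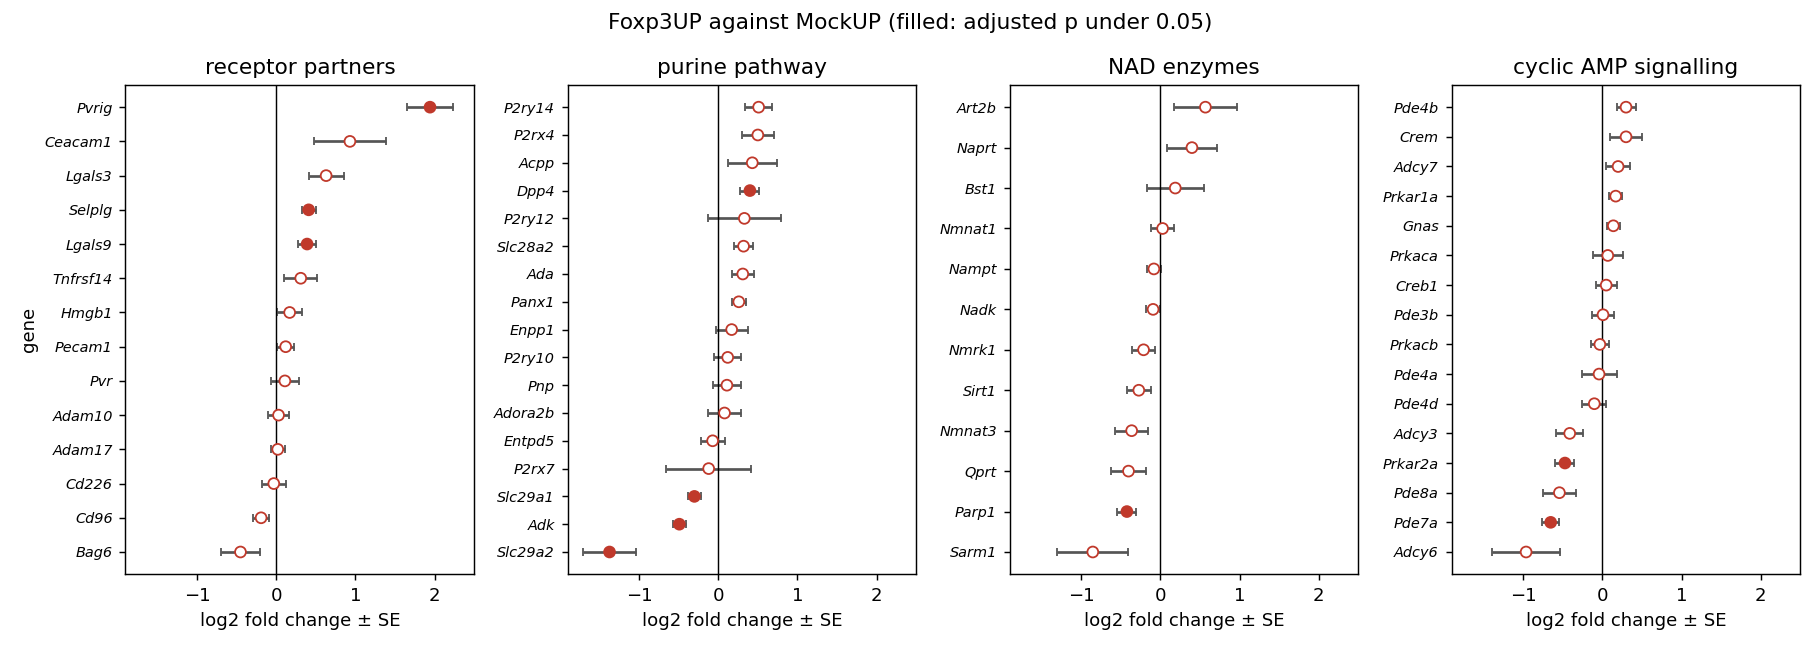
Log2 fold change with its standard error in Foxp3UP against MockUP for every tested gene of the lists of receptor partners, purine pathway, NAD enzymes and cyclic AMP signalling, filled where edgeR's adjusted p was under 0.05. Pvrig lies farthest to the right, at 1.94, and Slc29a2 farthest to the left among the filled points, at -1.37.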

How the data were processed

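RNA of 16 libraries was measured by bulk sequencing, per the labels. The authors deposited a gene table of unnormalized read counts, and tools listed in the submitters' processing notes are STAR 2.6.1 and Subread 1.6.3, with mm10 as the build. Gene positions and exonic lengths stand in further columns, per the file headers, and the lengths were used here for TPM, a level per length. Counting options and use of strand were not given in the sources used here, so reads of overlapping genes may be shared. Symbols came from GENCODE release M21, in which 55480 of 55573 identifiers were found, 55304 with the same start and end. Columns were assigned to samples through the sample numbers of the titles. No column was left over, and no library repeated another.

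Totals of 9389477 to 13226590 counts set the precision. Genes were kept with filterByExpr of edgeR 4.0.16 (minimum count 10), scaled by TMM and tested in R 4.3.3 with the quasi-likelihood F test, robust dispersion, 1 term per group and all 16 libraries. Calls were made at a Benjamini-Hochberg adjusted p under 0.05 over all genes, with both directions tested. The SE of a log2 fold change was derived from the F statistic, as |log2 fold change| over the root of F. The steps of the main fit were also run on simulated counts drawn independently for each library. Those counts held no sets or pairs of replicates, so that run could not test how such structure affects the calls. The 10 genes, Foxp3 and up to 4 called genes of each list were named, with the 3 genes most like each of the 10 (r over log2 CPM with prior count 2, average log2 CPM of at least 1, unnamed genes left out). The genes and lists were chosen with earlier results of these data known. Art2a had no match in the table. The result of 1 gene is not reported here.

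The alternatives tried were size factors by RLE, plain library totals, no filter, a stricter filter (1 CPM in 4 libraries), DESeq2 1.42.0, only the groups compared, a replicate block, each set of replicates (1 and 2, or 3 and 4) alone, and each library left out. The replicate block paired same-numbered Foxp3 and Mock libraries within the UP groups and within the DN groups. For MockUP against MockDN it was the replicate number alone. A fit of each set of replicates with the spread pooled over 16 libraries was added after the data were seen. Same-numbered libraries deviated together from their group means, with correlations of 0.630, 0.213, 0.297 and 0.398 in the UP groups, 0.364, 0.582, 0.545 and 0.298 in the DN groups and 0.185, 0.107, 0.326 and 0.271 between MockUP and MockDN. Unlike numbers of the same set correlated too. The values ran from 0.0444 (Foxp3UP 1 and MockUP 2) to 0.364 (Foxp3UP 4 and MockUP 3) in the UP groups. They ran from 0.172 to 0.237 in the DN groups, and MockUP 1 and MockDN 2 reached 0.594. A positive correlation of same-numbered libraries thus does not by itself show that the numbers are pairs. The replicate block took them as pairs, whereas the main fit, which gave the main counts of calls, had no term for them. Blocked calls stand beside those that they change in the 10 genes and the 4 pathway lists.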

Additional observations from a re-analysis of the deposited data

Results flagged for a closer look

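In 2 of 40 gene-by-group sets of 4 libraries, 1 library lay far from the others, a rule by which chance alone picks out about 1 in 20. Nt5e was at 22.4 CPM in Foxp3UP 1, while the other Foxp3UP libraries held 36.3 to 37.8, and MockUP 1 was also the lowest of its group, at 24.1. Adora2a was at 69.6 CPM in MockDN 3, while the other MockDN libraries held 60.9 to 62.2. Neither gene was called in any comparison.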

How the results depend on the processing

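The counts of called genes depended on the spread that was assumed. For Foxp3UP against MockUP, 1654 genes and 3 of the 10 were called. The counts became 639 genes with only the groups compared, 3475 and 5 with the replicate block, 31 and 0 with replicates 1 and 2 only, and 3002 and 5 with replicates 3 and 4 only. Leaving out 1 library gave 1055 (without Foxp3UP 1) to 1972 genes and 2 (without Foxp3UP 1) to 4 (without MockUP 2) of the 10. For the difference of effects, 251 genes and 0 of the 10 were called, against 651 and 2 in DESeq2, 1739 and 4 with the replicate block, 2 genes with replicates 1 and 2 only and 1679 and 4 with replicates 3 and 4 only. With pooled spread, a setting chosen after seeing the data, replicates 1 and 2 gave 70 genes and replicates 3 and 4 gave 2 of the 10. Leaving out 1 library gave 101 to 524 genes, the highest without MockUP 1 and the lowest without MockDN 1, and 0 to 2 of the 10, with 1 called without MockUP 1 and 2 without MockDN 3. For Foxp3DN against MockDN, 1 gene became 0 with replicates 1 and 2 only and 3 with replicates 3 and 4 only. For MockUP against MockDN, 1 gene became 2 with no filter, 8 in DESeq2, 32 with replicates 3 and 4 only, 2 in replicates 1 and 2 with pooled spread and 1 to 2 with 1 library left out. The cause was not tested. Replicates 1 and 2 only and replicates 3 and 4 only leave 2 libraries a group.

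With 1 library left out, the log2 fold change in Foxp3UP against MockUP was 0.49 to 0.62 for Havcr2 and 0.64 to 0.80 for Cd101, called in 8 of 8 cases each, and 1.06 to 1.47 for Entpd1, called in 7 of 8. No result on a single gene changed its direction while called. The replicate block changed no call on the 10 genes in Foxp3DN against MockDN or in MockUP against MockDN. At 138 to 375 counts a library, Cd101 is measured with more counting error than Havcr2, at 1820 to 4779.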
